A study of Mus musculus with 6 samples.

Results

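The T cell receptor variable (V) genes were read as 104 genes of the mouse genome in RNA from spleen leukocytes that the labels call CD8a+, out of 44678 genes in the deposited files. A gene was taken when its GENCODE symbol began with Trav, Trbv, Trdv or Trgv, its annotated gene type was TR_V_gene, and its counts summed to at least 10 over the 6 libraries. The study itself introduces its transcriptome sequencing in a passage on dendritic cells, some of which also carry CD8a, and its sorting of CD8+ T cells is not tied to these libraries, so which sort the labels stand for is not settled. The groups were 3 wild-type (WT) and 3 miR-144/451 knockout (KO) libraries from untreated mice. The study's methods describe young adult mice on the C57BL/6J background, in which the KO lacks both microRNA precursors. The labels did not say whether each library came from its own mouse, so p-values measure the spread between libraries, which may be technical.

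A T cell receptor is a pair of chains, alpha with beta or gamma with delta. In the thymus each developing T cell joins a V gene to a J segment, with a D segment between them in beta and delta chains, and the joined exon is spliced to a constant region. The V gene supplies most of the receptor surface that meets the antigen and the major histocompatibility molecule, so the mix of V genes in a sample is a coarse readout of its T cell repertoire. Most CD8+ T cells of the spleen carry alpha-beta receptors. Bulk counts do not show the joined sequence, and fewer T cells and less receptor RNA per T cell cannot be told apart in them.

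The annotation held 136 V genes with these names, and 120 of them were listed in the files. Of those 120, 4 had no count and 12 had fewer than 10, which together held 0.393% of V counts. The members were 79 Trav genes on chromosome 14 between 52567198 and 53876752, 20 Trbv genes on chromosome 6 between 40891229 and 41558452, 4 Trdv genes on chromosome 14 between 53881612 and 54149294, and Trgv2 on chromosome 13 from 19336573 to 19337167 (build GRCm38). Trbv30 and Trdv4 were the lowest members with 11 counts each. Trav1 and Trav7-1 were just outside with 9 counts each. Trav1 is the alpha V gene of mucosal-associated invariant T cells. All 84 J and D segments in the files were listed at 0 in all 6 libraries. A further 8 V genes under other symbols, among them the Tcrg-V genes, were outside the naming rule and held 9 to 22 counts per library.

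The end of a V gene is where the joining takes place. The last 30 bases of the second exon are shown for the most used V gene, Trbv16, and for 3 beta V genes described below. They are 5′ to 3′ on the plus strand of chromosome 6, and the capitals mark the TGT codon of the conserved cysteine that opens the antigen-contact loop.
Trbv16: agcggtgtatcttTGTgcaagcagcttaga
Trbv14: cagccacctatctcTGTgccagcagtttct
Trbv29: atctgtgtacttcTGTgctagcagtttatc
Trbv19: tggccgtttttctcTGTgccagcagtatag
The Trbv14 stretch ends at 41135616, Trbv16 at 41152230, Trbv19 at 41179048 and Trbv29 at 41271881. Past the cysteine codon these genes carried 13 or 14 bases. None of the 4 shared a 31-base word with another V gene, and their counts can be read gene by gene.

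The alpha locus is different, because in this strain it holds repeated blocks of V genes whose copies carry the letters d or n. The following pairs are shown because copies this alike can hardly be told apart by reads. The stretches are from chromosome 14, with the same codon in capitals.
Trav7-2: gactctgctctctacctcTGTgcagcaagc
Trav7d-2: actctgctctctacctcTGTgcagcaagca
Trav6-3: ttcggctgtgtactacTGTgctatgagaga
Trav6d-3: ttcggctgtgtactacTGTgctatgagtga
Trav7-2 ends at 53391142 and Trav7d-2 at 52684472. Their annotated spliced sequences had 336 identical bases and 0 mismatches, and Trav7d-2 is 1 base longer. Trav6-3 and Trav6d-3 are 388 and 347 bases long. Over the bases that align they matched at 346 and differed by A386T, counted from 1 at the 5′ end of the Trav6-3 transcript. Of the 79 Trav members, 74 shared at least 1 31-base word with another V gene, against 5 of the 20 Trbv members. Levels of a Trav gene are therefore uncertain gene by gene, and the numbered subgroups, in which copies are summed, are given beside them.

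The deposited values were unscaled and in part fractional, and were treated like expected counts per gene, since the counting tool is not given in the sources used here. Library totals ran from 8143971 to 8876570, and 3 counts in a library corresponded to 0.342 to 0.372 CPM, the counts scaled to a common library size with TMM factors. The precursors Mir144, Mir451a and Mir451b were listed at 0 in all 6 libraries, so these mRNA libraries do not check the genotype. Cd8a, a subunit of the CD8 co-receptor, was at 694 to 1041 CPM in WT and at 476 to 1030 CPM in KO. Cd8b1, its partner on T cells, was at 546 to 756 CPM in WT and at 305 to 688 CPM in KO. B cell markers (5 of 5 detected) summed to 1147 to 1991 CPM in WT and 998 to 2323 CPM in KO, and monocyte markers (4 of 4) to 955 to 1552 and 993 to 1622 CPM. Dendritic cell markers (6 of 6 detected) summed to 195 to 213 CPM in WT and 236 to 256 CPM in KO without overlap. Of these 6 genes 0 were called. The log2 fold changes of 5 were above 0, with a median of 0.48 against 0.00297 over all genes tested, and Siglech was at -0.02. The CPM of 2 of the 6 were higher in KO without overlap, as were those of 5.83% of all genes tested. Among the 2 was the growth factor receptor Flt3, at 31.8 to 32.5 CPM in WT and 39.3 to 51.1 CPM in KO. The part of these cells in the V gene results was not tested.

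V gene counts made up a small part of each library. They were 2711, 2867 and 2236 in the WT libraries 1, 2 and 3, and 2069, 1487 and 2920 in the KO libraries. As a percentage of the library this was 0.0308, 0.0323 and 0.0275 in WT and 0.0242, 0.0181 and 0.0332 in KO. The means were 0.0302% ± 0.00248 (SD, n = 3) and 0.0252% ± 0.00762 (SD, n = 3). The groups overlapped, since KO replicate 3 had the highest share of all 6 and KO replicate 2 the lowest. Without KO replicate 2 the difference shrank from -0.00503 to -0.00148 percentage points, and without KO replicate 3 it was -0.00905.

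In the KO libraries, the order of the V share was also that of Trac and the CD3 genes, though not of every T cell gene. Cd4 was at 75.5, 71.8 and 28.7 CPM in KO replicates 1, 2 and 3, and Trdc, the delta constant region, at 11.8, 11.2 and 11.7 CPM. Trac, the alpha constant region, was at 294, 399 and 364 CPM in WT and 271, 207 and 364 CPM in KO. The 4 CD3 genes, whose products carry the receptor's signal, summed to 943, 1124 and 1129 CPM in WT and 831, 670 and 1094 CPM in KO. KO replicate 2 was the lowest library for both, as for the V genes, and KO replicate 3 stood within the WT range for both. Within WT the order differed, as replicate 3 had the lowest V share and the highest CD3 sum. The B cell markers ran the other way in KO replicate 2, at 2323 CPM, and in KO replicate 1, at 2074 CPM. WT replicate 1, with the lowest CD3 sum of WT, was near them at 1991 CPM. The erythroid markers were at 1501 CPM in KO replicate 2 and at 113 to 474 CPM in the other libraries. The part of these other cells in the V gene levels was not tested.

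Against the constant regions the V counts were close to level. There were 0.312, 0.270 and 0.244 V counts per constant-region count in WT and 0.285, 0.270 and 0.299 in KO. The means were 0.275 ± 0.0341 (SD, n = 3) and 0.285 ± 0.0144 (SD, n = 3), and all 3 KO values lay within the WT range.

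**Figure D1:**
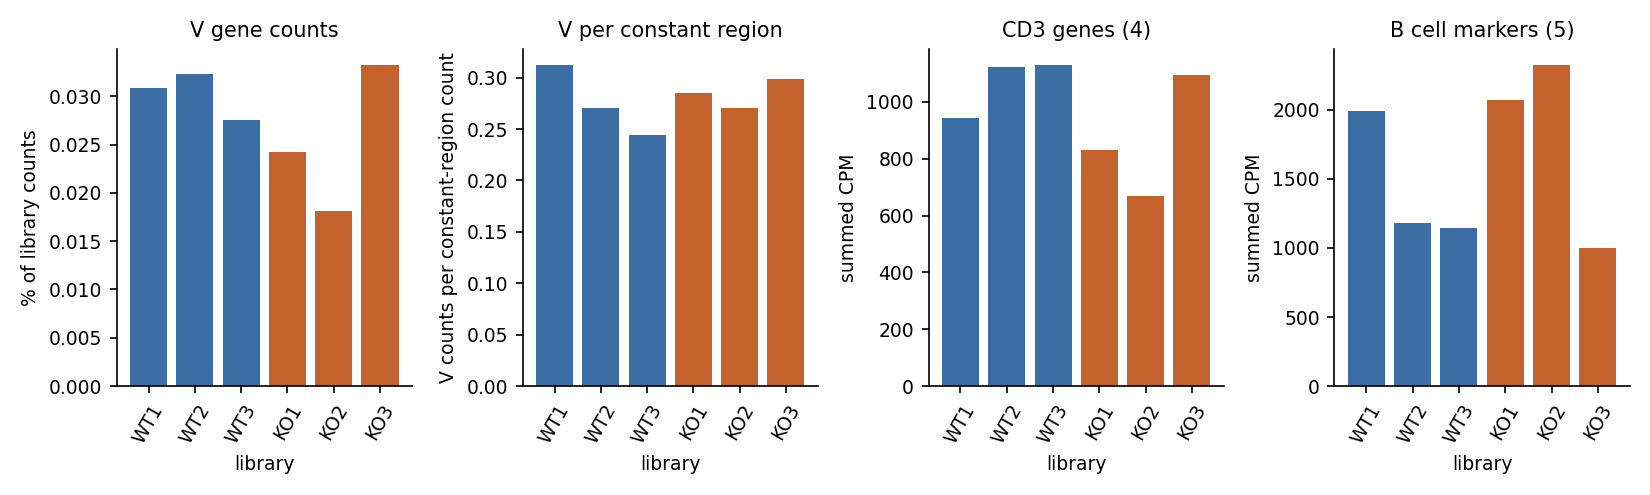
Bars show, for each of the 6 libraries (WT blue, KO orange), the summed counts of 104 V genes as a percentage of library counts, the V counts per count of a T cell receptor constant region, and the summed CPM of 4 CD3 genes and of 5 B cell markers. V content is highest in KO3 (0.0332%) and lowest in KO2 (0.0181%), so the genotypes overlap, and the ratio to constant regions lies between 0.244 and 0.312.

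Usage is the share of each library's V counts that a gene or family takes, which sets it against the other V genes of the same library. Beta V genes took 63.9%, 62.3% and 62.9% in WT and 60.9%, 62.3% and 59.6% in KO. The mean was 63.1% ± 0.803 for WT libraries against 60.9% ± 1.38 for KO libraries (SD, n = 3 each). The groups did not overlap, but the lowest WT and the highest KO library were 0.0264 percentage points apart. Alpha V genes took 35.1%, 36.8% and 35.8% in WT and 37.6%, 36.5% and 39.1% in KO, and these groups overlapped. The direction turned when only V genes with at least 100 counts were kept, where the Trbv share was 0.555 percentage points higher in KO.

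Delta and gamma V genes were rare. The 4 Trdv genes summed to 15.6, 13 and 12 counts in the WT libraries, against 19, 13 and 16 in the KO libraries. That was 0.577%, 0.453% and 0.537% of V counts in WT, against 0.918%, 0.874% and 0.548% in KO, with overlap. Trgv2, the gamma V gene among the members, had 12, 12 and 16 counts in WT, against 12, 5 and 22 in KO. Trdv2-2 had the highest mean count of the delta genes, though not the highest in every library, with a usage of 0.225% ± 0.0181 in WT against 0.277% ± 0.134 in KO (SD, n = 3 each). Trdv5 was at 0.123% ± 0.095 and 0.254% ± 0.104, and Trdv1 at 0.123% ± 0.0713 and 0.124% ± 0.139. The delta constant region Trdc was at 11.4 CPM ± 2.71 in WT and 11.6 CPM ± 0.328 in KO (SD, n = 3). The 3 delta genes that share no 31-base word with another V gene, Trdv1, Trdv4 and Trdv5, took 0.369%, 0.209% and 0.313% of V counts in WT and 0.628%, 0.471% and 0.411% in KO, higher in all 3 KO libraries on 6 to 13 counts per library. Trdv5 overlaps Trdc on the opposite strand, and without stated use of strand their reads cannot be told apart.

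Trbv16 was the leading V gene in every library. Corrected for transcript length, it took 7.32%, 7.44% and 8.69% of V counts in WT, against 7.67%, 7.16% and 7.68% in KO, rank 1 in all 6. Trbv14 came next on the same scale at 5.18% on average over the 6 libraries, followed by Trbv12-2 at 5.05%, Trbv13-2 at 4.90%, Trbv29 at 4.74% and Trbv12-1 at 4.42%. The ranges of these 5 overlapped each other, so their order is not resolved. The highest of them in any library was Trbv14 at 6.36%, below the lowest value of Trbv16. At the other end Trbv30 had 0 to 3 counts per library.

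Summed over copies and uncorrected for length, the Trbv13 subgroup, known in flow cytometry as Vβ8, took 10.1%, 11% and 10.2% of V counts in WT, against 10.2%, 11% and 11.6% in KO. The Trbv12 subgroup, known as Vβ5, took 9.60% ± 1.03 in WT and 8.93% ± 0.859 in KO (SD, n = 3). Both overlapped between the genotypes.

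Within the beta family, use was spread over most genes. The effective number of Trbv genes, the number of equally used genes that would give the same Shannon entropy, was 16.4, 16.3 and 15.9 in WT and 16.5, 16.5 and 16.1 in KO. The means were 16.2 ± 0.284 and 16.4 ± 0.257 (SD, n = 3). The 10 most used Trbv genes took 73.6%, 73.7% and 75.3% of Trbv counts in WT, against 72.2%, 73.2% and 73.3% in KO.

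**Figure D2:**
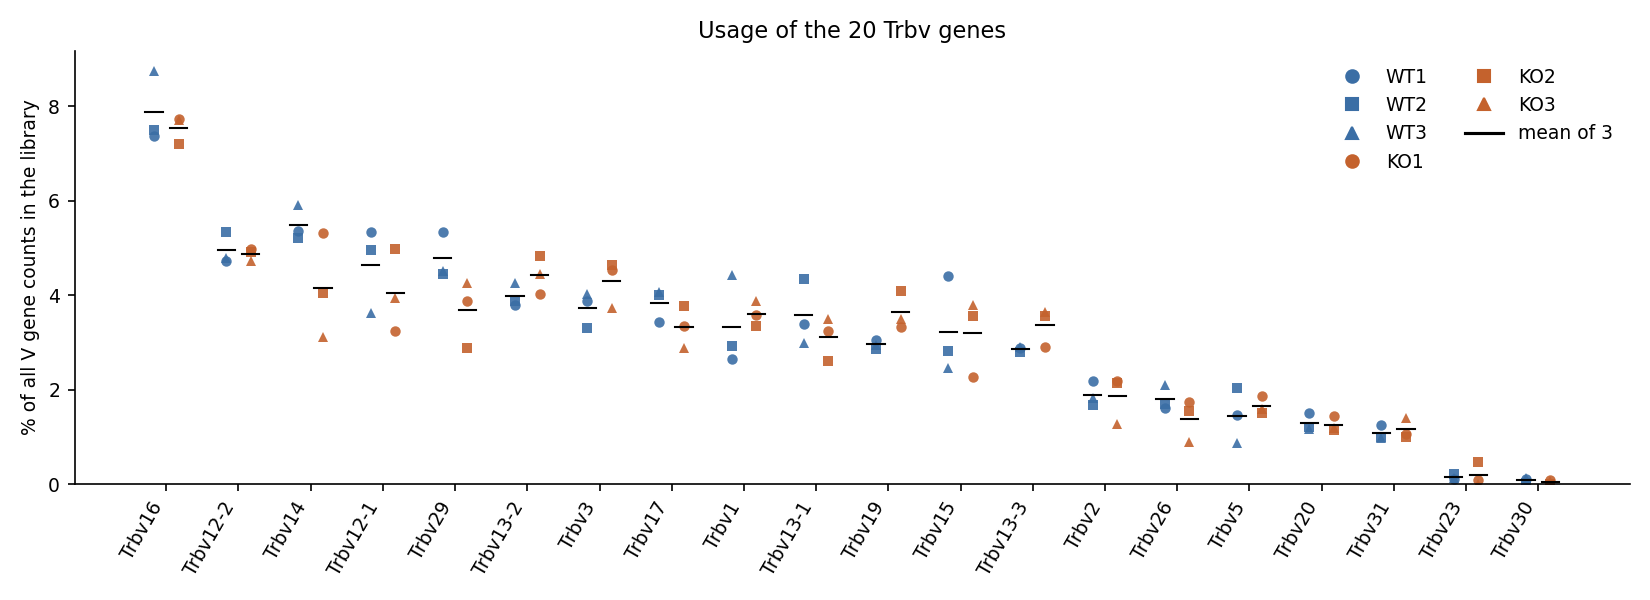
Each point is the share of all V gene counts (vertical axis, in percent, uncorrected for length) that a Trbv gene took in a library, with WT in blue, KO in orange, the replicate by symbol, and the mean of 3 as a black line. Trbv16 stands at 7.20% to 8.74% in all libraries, Trbv29 is lower in all 3 KO than in all 3 WT libraries, and Trbv19 is higher.

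A few beta V genes had usage that did not overlap between the genotypes. Usage exists only for V genes, so the background for these counts is the members themselves: 5.77% of the 104 were higher in KO without overlap (6 genes) and 1.92% lower (2 genes). Across all 13024 genes tested, the CPM of 5.83% were higher and of 5.64% lower in KO without overlap, a different measure, so the share of V genes that were higher was close to that figure and the share that were lower was below it. The genes in the next 2 paragraphs were picked after their values were seen, apart from Trbv29, which was among the 8 most used of its family.

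Trbv29 took 5.35%, 4.46% and 4.52% in WT and 3.89%, 2.89% and 4.26% in KO. All 3 KO values were lower, though KO replicate 3, with 124 of 2920 V counts, had a 95% Wilson interval of 3.57% to 5.04% that held 2 of the WT values. Intervals cover counting error only. Trbv19 took 3.06%, 2.86% and 2.95% in WT and 3.34%, 4.10% and 3.49% in KO. KO replicate 2 was the highest, with an interval of 3.21% to 5.23% on 61 counts, and the intervals of KO replicates 1 and 3 began at 2.64% and 2.89%, under the highest WT value. Trbv13-3 took 2.88%, 2.80% and 2.91% in WT and 2.91%, 3.56% and 3.64% in KO, where the lowest KO and the highest WT library were equal at this rounding. When usage was fitted with edgeR's quasi-likelihood test on the whole gene table, scaled to V counts, the log2 fold change was -0.37 (SE 0.382, adjusted p = 0.61) for Trbv29 and 0.30 (SE 0.402, adjusted p = 0.654) for Trbv19. Neither passed the threshold of 0.05.

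Among alpha V genes, Trav6n-7, Trav8n-2, Trav13d-2 and Trav5d-4 were higher in KO without overlap, and Trav7d-3 was lower. Trav8n-2 took 0.369%, 0.593% and 0.447% in WT and 0.918%, 0.942% and 0.719% in KO. Trav6n-7 took 0.634%, 0.429% and 0.490% in WT and 0.725%, 0.993% and 0.959% in KO. Trav7d-3 took 1.08%, 0.551% and 0.344% in WT and 0.206%, 0% and 0.281% in KO. Its partner Trav7-3 differs by 4 bases, and with the pair summed the usage was 1.37%, 1.05% and 1.04% in WT and 0.532%, 0.404% and 0.856% in KO, again lower in all 3 KO libraries. Among the 40 numbered subgroups, where copies are summed, the usage of 5% (Trbv19 and Trav15) was higher in KO without overlap and that of 2.5% (Trbv29) was lower. Trav15 took 0.148%, 0.628% and 0.224% in WT and 0.628%, 0.673% and 0.685% in KO, again with a WT and a KO library equal at this rounding.

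The alpha repertoire was spread over many genes. On the length-corrected scale Trav3d-3 led the family at 1.49% on average over the 6 libraries, followed by Trav12-2 at 1.35% and Trav6d-6 at 1.32%. Their ranges overlapped, at 1.12% to 1.99%, 0.809% to 1.85% and 0.681% to 1.82%, so no gene led the family beyond the spread. Of the other members named for their use, Trav14d-1, Trav16n and Trav9d-3 averaged 1.23%, 1.21% and 1.21% on that scale, and Trav9n-4 and Trav9-2 averaged 0.771% and 0.765%. Uncorrected, 8 of 79 Trav genes took more than 1% of V counts, against 18 of 20 Trbv genes. The effective number of Trav genes was 49.2, 55.0 and 50.2 in WT and 55.2, 51.5 and 55.3 in KO, with means of 51.4 ± 3.10 and 54.0 ± 2.14 (SD, n = 3). The 10 most used Trav genes took 41.1%, 37.3% and 38.2% of Trav counts in WT, against 34.1%, 34.5% and 37.0% in KO. The groups did not overlap here, and WT replicate 2 and KO replicate 3 were the nearest.

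Trav14, with 7 members, and Trav9 were the most used alpha subgroups by the mean of the 6 libraries, at 5.15% and 5%, and Trav14 was above Trav9 in 4 of 6 libraries. Trav14 took 5.09%, 5.79% and 3.94% of V counts in WT, against 5.99%, 5.25% and 4.83% in KO, with overlap. Trav9 with 6 members took 5.26% ± 0.341 in WT and 4.73% ± 0.527 in KO (SD, n = 3). Trav12 took 4.65% ± 1.03 and 4.84% ± 0.800, and Trav6, with 12 members, 4.13% ± 0.853 and 4.77% ± 0.309. None of the 4 separated the genotypes. Trav11d, a copy of the alpha V gene used by invariant natural killer T cells, had 2, 4 and 3 counts in WT, against 4, 0 and 1 in KO, too few to compare. Zbtb16, the transcription factor that marks those cells, was at 1.83 to 4.56 CPM in WT and 0.916 to 6.74 CPM in KO.

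**Figure D3:**
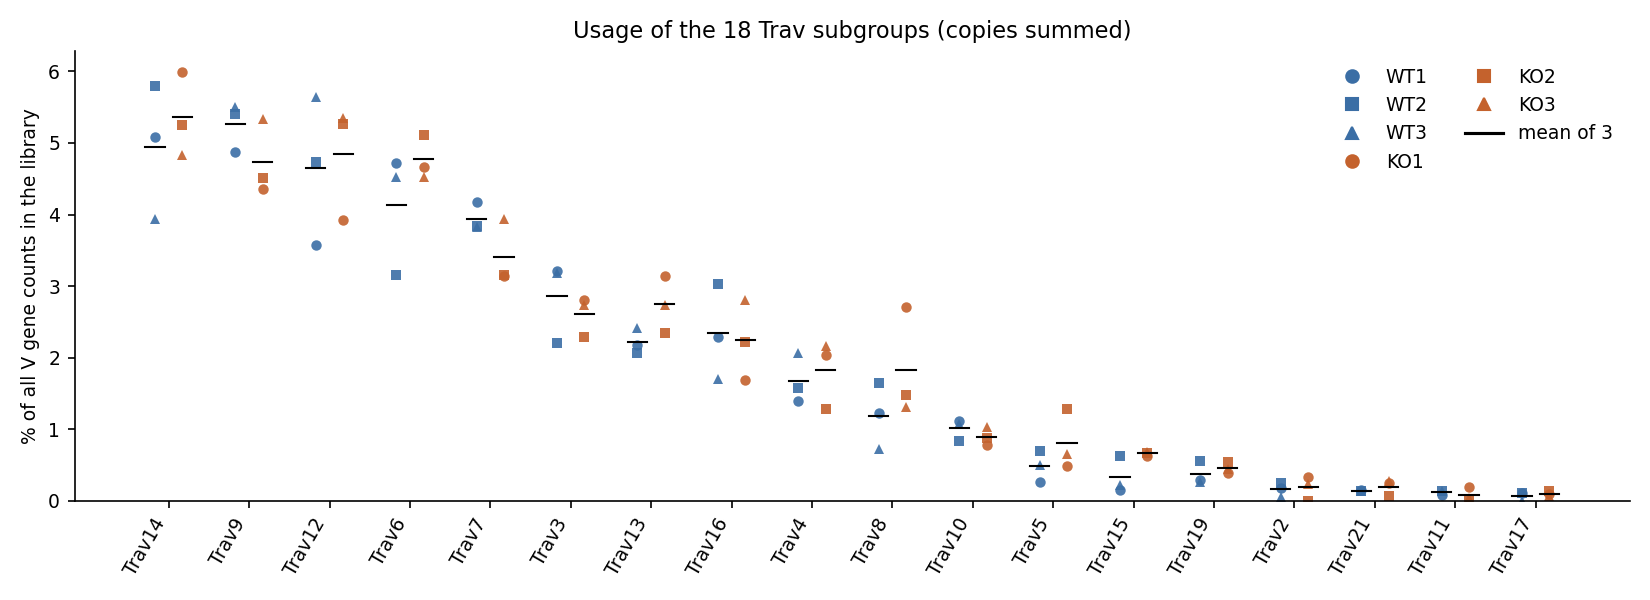
Points give the share of all V gene counts (vertical axis, in percent) of the 18 Trav subgroups, with the copies of each summed, in 3 WT (blue) and 3 KO (orange) libraries, and black lines the means. The 5 largest subgroups, Trav14 to Trav7, lie between 3.14% and 5.99%, with WT and KO points mixed.

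Shares by block letter depend on how reads were assigned among copies, and are given as the files hold them. The 26 Trav members with the letter d took 35.4%, 30.1% and 33.1% of Trav counts in WT, against 32.5%, 25.0% and 31% in KO. The 14 with the letter n took 16.7%, 21.3% and 17.3% in WT and 21.6%, 22.1% and 20.7% in KO. The 39 without a letter took 48.7% ± 0.871 in WT and 49.0% ± 3.54 in KO (SD, n = 3). All of these groups overlapped.

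Reads of near-identical copies were not divided evenly. Trav7-2 had 14, 28 and 0 counts in WT, against 15, 16 and 0 in KO. Trav7d-2, identical to it over 336 bases, had 0, 0 and 16 in WT and 0, 0 and 27.1 in KO. So in each library 1 copy held all counts of the pair, Trav7d-2 in the third replicate of either genotype and Trav7-2 in the other 4 libraries. Summed, the pair had 14, 28 and 16 counts in WT, against 15, 16 and 27.1 in KO. Trav6-3 had 5, 5.71 and 7 counts in WT, against 0, 7 and 6 in KO, while Trav6d-3 had 0, 1.29 and 0 in WT and 13, 0 and 0 in KO. Here KO replicate 1 alone placed all of its counts on the d copy. The copy that held the counts thus differed between libraries of the same genotype.

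**Figure D4:**
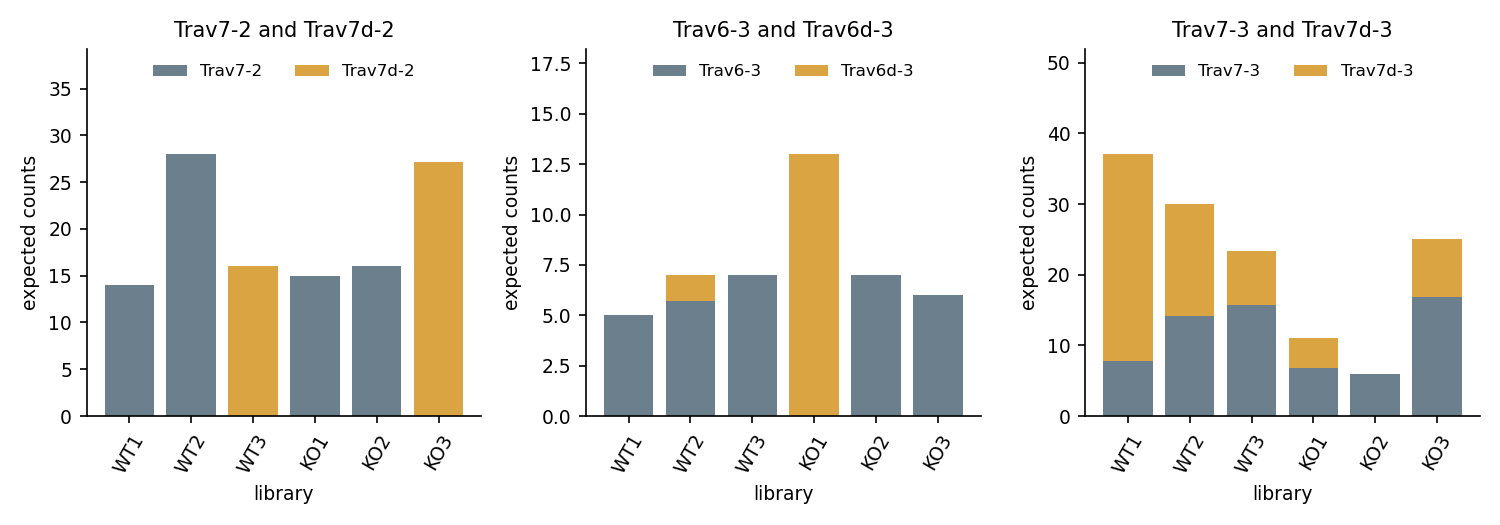
Stacked bars show the expected counts (vertical axis) of 3 pairs of Trav copies in each of the 6 libraries, grey for the copy without a letter and yellow for the d copy. For Trav7-2 and Trav7d-2 all counts sit on 1 copy per library, 16 in WT3 and 27.1 in KO3 on Trav7d-2.

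The comparison of KO with WT gene by gene asks whether any V gene transcript changed with the deletion. Of the 104 members, 53 passed the filter on low counts, comprising 34 Trav, 18 Trbv and Trgv2, and no Trdv gene. No V gene was called by edgeR's quasi-likelihood test at an adjusted p under 0.05, and the smallest adjusted p was 0.683. Over all 13024 genes, 0.0307% were called (4 genes). DESeq2 on the same genes also called 0 V genes. At an unadjusted p under 0.05 both tools found 3 of the 53 V genes tested. In edgeR all 3 had lower levels in KO, and 2.11% of all genes tested were under 0.05 in that direction.

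Below 0 were the log2 fold changes of 46 of the 53 members, among them all 18 Trbv genes (Trbv19 at -0.000345), with a median of -0.31. Over all genes tested the median was 0.00297 and 49.4% were below 0. The T cell receptor list, 18 genes of constant regions, CD3 chains, co-receptors and proximal signalling, had the same median of -0.31, with 15 of 17 tested genes below 0 and 0 called. Trac was at -0.33 (SE 0.203), Trbc1 at -0.38 (SE 0.186), Trbc2 at -0.36 (SE 0.180) and Cd8b1 at -0.48 (SE 0.271). The recombination list, 11 genes mostly of the machinery that cuts and rejoins receptor loci, such as Rag1 and Dntt, had a median of -0.04 over 9 tested genes, also with 0 called. Rag2 and the pre-T alpha gene Ptcra were at or under 0.116 CPM in every library.
Among the fits that left out a library, the V gene median moved most with KO replicates 2 and 3. Without KO replicate 2 it was -0.0532, and without KO replicate 3 it was -0.588 with 12 members at an unadjusted p under 0.05.

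Trbv14, Trbv26 and Trbv17, the genes of the Vβ13, Vβ3 and Vβ9 chains, had the smallest unadjusted p. Trbv14 was at 16.6, 17 and 16.4 CPM in WT and 12.7, 7.22 and 10.4 CPM in KO. All 3 KO libraries were lower, KO replicate 3 included, in which V counts as a whole were the highest of the 6 libraries. The log2 fold change was -0.72 (SE 0.215, edgeR adjusted p = 0.683), and it ran from -0.52 to -0.93 when each library was left out.

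Trbv26 was at 5.02, 5.59 and 5.83 CPM in WT and 4.17, 2.77 and 2.98 CPM in KO, a log2 fold change of -0.73 (SE 0.267, edgeR adjusted p = 0.774). Trbv17 was at 10.6, 13.1 and 11.3 CPM in WT and 8.01, 6.74 and 9.62 CPM in KO, a log2 fold change of -0.52 (SE 0.201, edgeR adjusted p = 0.786). With Trav6-5 they were the 4 members that passed the filter and had lower CPM in KO without overlap, where 5.64% of all genes did. No member that passed was higher without overlap, where 5.83% of all genes were.

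As usage, the pattern of these genes differed between libraries. Trbv14 took 5.36%, 5.21% and 5.91% of V counts in WT, against 5.32%, 4.04% and 3.12% in KO. KO replicate 1 lay within the WT range, and KO replicate 3, with an interval of 2.55% to 3.81% on 91 counts, lay below the intervals of all 3 WT libraries, of which the lowest bound was 4.44%. Trbv26 took 1.62%, 1.71% and 2.10% in WT and 1.74%, 1.55% and 0.890% in KO, so KO replicate 3 was again the lowest. Trbv17 took 3.44%, 4.01% and 4.07% in WT and 3.35%, 3.77% and 2.88% in KO, which overlapped.

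When scaled to the summed V counts, 25 of the 53 members were above 0 and 28 below, with a median of -0.00663. The values ran from -0.76 for Trav14d-3-dv8 to 1.03 for Trav14-2. None had an unadjusted p under 0.05, and the smallest adjusted p was 0.582. The log2 fold change of Trbv14 was -0.40 (SE 0.375) on this scale. The median SE of the members was 0.549 on this scale, against 0.397 when scaled to the library. This fit estimated the spread over the whole gene table, in which 241 genes were called on this scale. The absence of V gene calls therefore does not show that usage was equal. With copies summed, 29 of the 40 subgroups were tested and 0 were called on either scale.

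**Figure D5:**
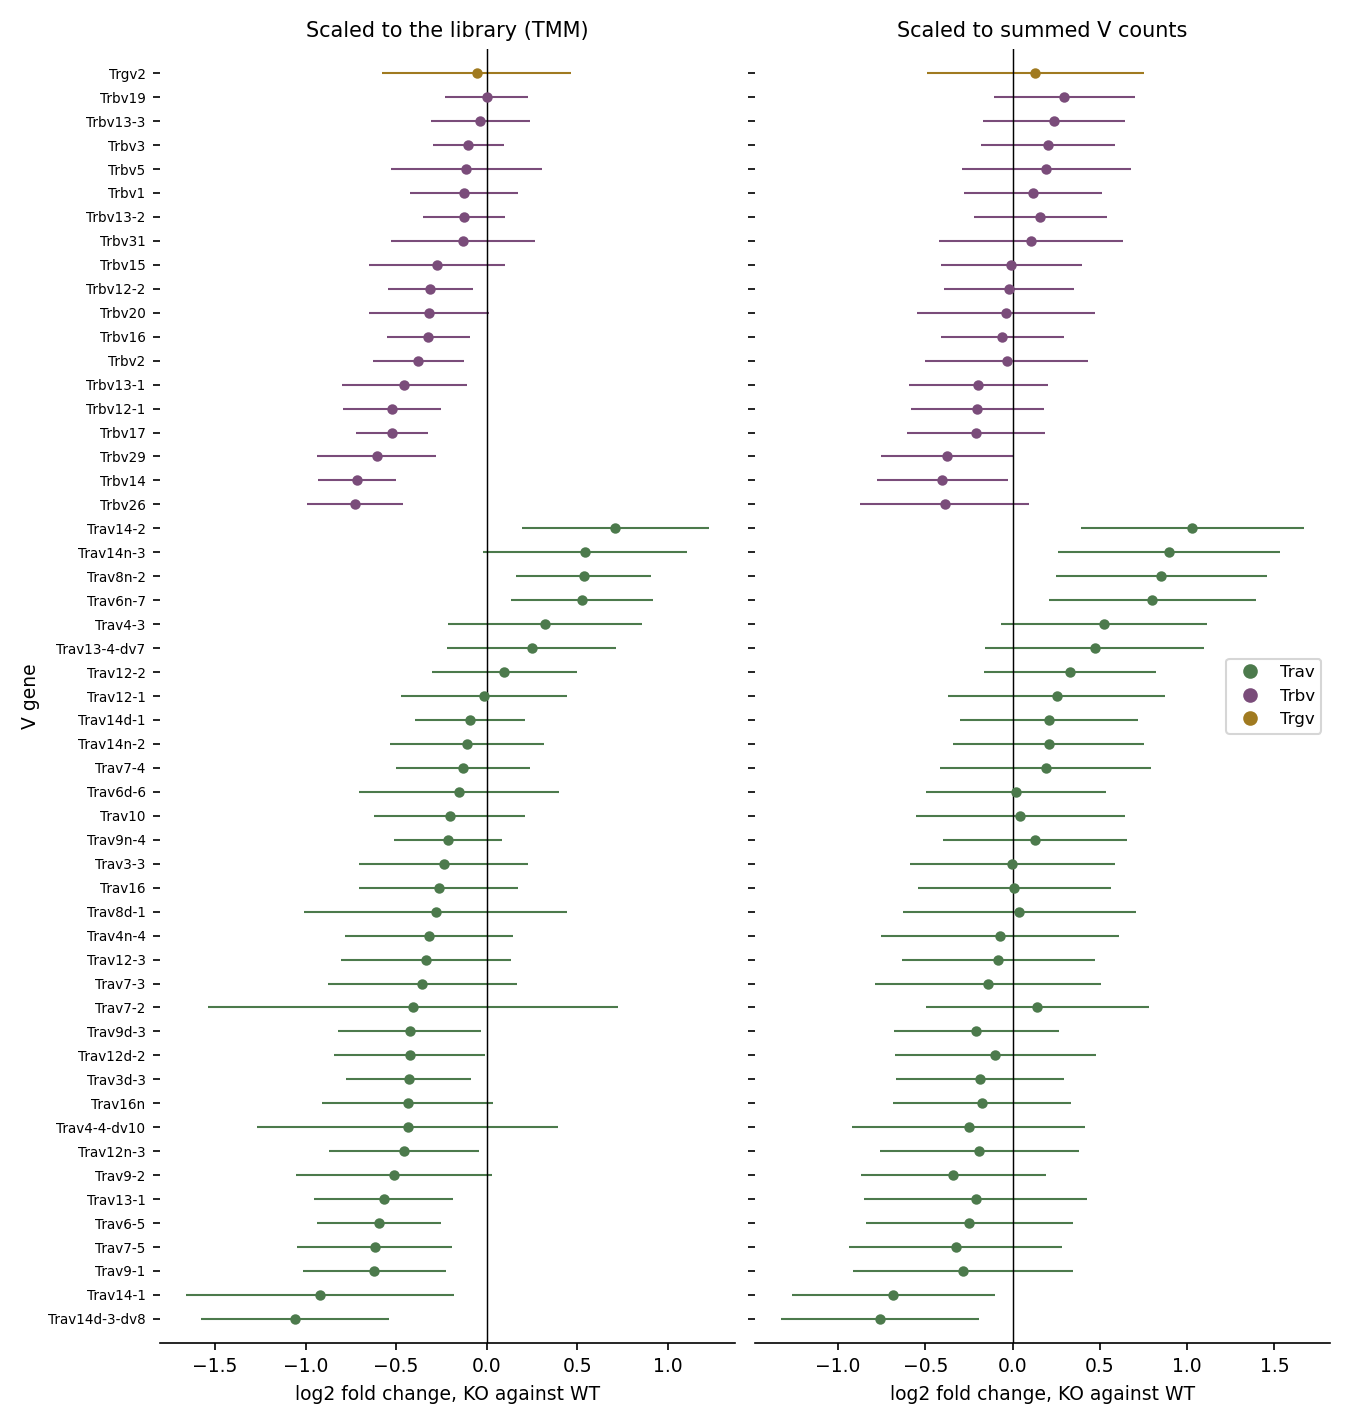
Points are the edgeR log2 fold changes of KO against WT for the 53 V genes that passed the filter, bars are 1 SE, and colours give the family. Scaled to the library (left) 46 points lie below 0, and scaled to summed V counts (right) 28 do.

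Libraries of the same genotype also differed from each other in V usage. The chi-square per degree of freedom of Trbv counts between a pair of libraries would be near 1 for counting error alone. It was 1.47 to 2.82 for the 3 pairs within WT, 1.41 to 2.73 for the 3 within KO and 1.07 to 3.75 for the 9 between genotypes. The lowest of all pairs was WT replicate 3 with KO replicate 1, and the highest WT replicate 3 with KO replicate 3. For Trav subgroups the ranges were 2.22 to 3.88, 1.15 to 2.28 and 1.29 to 4.11. The ranges within and between genotypes overlapped.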

How the data were processed

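Libraries had been made from total RNA of sorted spleen cells with an mRNA kit. Each deposited file holds unscaled values of 1 library for Ensembl genes, which were treated like expected counts because some are fractional. The submitters' processing notes name GRCm38 and mm10, and the aligner, counter and use of strand are not given in the sources used here. Symbols, gene types and transcripts came from GENCODE M21, which held 44121 of the 44678 identifiers. The members and gene lists were chosen with earlier results of these data known. The V genes named are the most used of each family (8 Trav, 8 Trbv, 3 Trdv and up to 4 Trgv), those of smallest p where that was under 0.05, Trav11d, and genes singled out after their values were seen, as stated there.

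Counts were rounded and fitted with edgeR 4.0.16 (quasi-likelihood, TMM, filterByExpr at 10 counts and a summed total of 15), with Benjamini-Hochberg adjustment over 13024 genes. Test steps were tested on simulated data. CPM were computed from library totals multiplied by TMM factors, usage from summed member counts, and length-corrected usage from spliced lengths. For sums over members no p is printed, since an exact permutation test of 3 against 3 libraries cannot go below 0.1. Alternatives were DESeq2 1.42.0, no filter, a replicate block, scaling to V counts, other count minimums, V genes sharing no 31-base word, and leaving out each library.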

Additional observations from a re-analysis of the deposited data

How the results depend on the processing

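No V gene and no subgroup was called in any of the 10 alternatives run for each. Over all genes, the 4 called became 58 with DESeq2, 12 without the filter, 9 with the replicate block, 241 scaled to V counts, 94 without KO replicate 3 and 2 or 3 without any other library. Restricting to V genes with at least 100 counts turned the direction of 4 differences between KO and WT: V counts per constant-region count to -0.00192, the Trav share to -0.555 and the Trbv share to 0.555 percentage points, and the effective number of Trav genes to -0.183. It left 3 genes with non-overlapping usage, and no Trdv or Trgv gene, so those shares have no value there. With subgroups in place of genes the effective number of Trbv genes differed by -0.0307. The cause was not tested. Among V genes sharing no 31-base word, the Trdv share was 0.502 percentage points higher in KO (1.17% against 0.668%), the Trav share 0.928 higher, and the Trbv share differed by -1.43.

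Leaving out each library in turn gave differences of -0.0063 to 0.0276 for V counts per constant-region count, -0.0675 to 0.141 percentage points for the Trgv share and -0.0386 to 0.270 for the effective number of Trbv genes. Non-overlapping usage then held for 13 to 22 genes and 6 to 11 subgroups, as comparisons with fewer libraries separate more easily. The difference in the effective number of Trav genes ran from 1.42 without WT replicate 1 to 4.33 without WT replicate 2, and that in the Trav share from 1.14 percentage points without KO replicate 3 to 2.48 without KO replicate 2. The log2 fold changes that changed sign ran from -0.44 to 0.30 for Trav12-2, -0.29 to 0.10 for Trav14d-1, -0.74 to 0.25 for Trav6d-6, -0.42 to 0.02 for Trbv13-2, -0.26 to 0.04 for Trbv3 and -0.66 to 0.31 for Trgv2. Scaled to V counts, which moved the median of all V genes tested from -0.312 to -0.00663, those of Trav14d-1 (0.21), Trav9n-4 (0.13), Trav6d-6 (0.02), Trbv13-2 (0.16), Trbv3 (0.20) and Trgv2 (0.13) were above 0.

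In their deviations from the group means, same-numbered libraries correlated at -0.00278, -0.253 and 0.158, and differently numbered ones at -0.326 to 0.359. With 3 libraries per genotype these values cannot settle whether the replicate numbers pair the samples. With the replicate block 0 V genes were called, and 1 had an unadjusted p under 0.05. Without the filter 104 members were tested, and 6 did. With 1487 to 2920 V counts per library, a usage under 1% rests on fewer than 30 counts.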

Other observations

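Annotated V pseudogenes were also counted. Of 32 in the files, Trbv24 had 36 counts over the 6 libraries, at 9, 9 and 2 in WT and 2, 11 and 3 in KO, and Trav8-2 had 15. Trav7n-6 had 14 counts, all in KO replicate 3.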
